A study of Homo sapiens with 9 samples.

Results

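POLR3G encodes a subunit of RNA polymerase III, and it is 1 of 14812 genes measured with a name on whole-transcript arrays of WM266-4 cells, an established human line from a melanoma metastasis, here carrying GFP. It was chosen with its values known, as a bright gene whose signal was lower than control at both doses of a miR-199a-3p mimic, and it is described by its brightest row, which is also its only named row (1 row). By lipofection, the cells of 3 arrays received the mimic at 0.5 nM, those of another 3 the mimic at 0.25 nM, and those of 3 a control microRNA, also at 0.5 nM. RNA was taken 48 h later. All 3 groups thus carry GFP and received lipid reagent and a small RNA, and the 0.25 nM group has no control at its own dose. The line is a single established line, and the labels call the 3 arrays of a group biological triplicates.

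RNA polymerase III makes short non-coding RNAs, among them the transfer RNAs, the smallest ribosomal RNA and part of the small nuclear RNAs. POLR3G sits with POLR3C and POLR3F in a detachable subcomplex that the enzyme needs to start transcription. A paralog, POLR3GL, can take its place, so that the enzyme exists in alternative forms; the POLR3G form is known from pluripotent stem cells and transformed cells, the POLR3GL form from most differentiated tissues. A microRNA of this kind pairs with messenger RNAs mainly through its seed, bases 2 to 8 of the mature strand, and lowers their level or translation.

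The transfected agent is shown because every comparison rests on it, with the seed in capitals, 5′ to 3′, from RefSeq (GRCh38.p14).
hsa-miR-199a-3p: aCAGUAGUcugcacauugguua
hsa-miR-199b-3p: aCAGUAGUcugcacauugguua
hsa-miR-3129-5p: gCAGUAGUguagagauugguuu
These are the 3 mature microRNAs of 2370 names in the RefSeq table that share this seed. The first pair is identical over all 22 bases, and miR-199a-3p itself comes from 2 genes. The POLR3G transcript was not searched for seed matches here.

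The series is 1 table of 44629 rows and 9 arrays of log2 intensities, of which 15835 rows carry 1 gene symbol. Array medians over the genes ran from 6.15 to 6.31, and every value below is given after the arrays were shifted to one median, unless it is called deposited. The shift followed the groups: 0.082 on each control array, -0.063 to -0.080 at 0.25 nM, and between these at 0.5 nM. It cannot be told apart from treatment. Values tied exactly on all 3 arrays in 47.8% of rows in control, 48.6% at 0.5 nM and 42.0% at 0.25 nM, while 0 values were equal between arrays of different groups. The limma p-values below measure the spread between such arrays. For a gene tied within every group, that spread is only what the array shift adds. Its p-value then does not measure variation of the gene between replicates. Of the melanocyte lineage markers 7 of 8 had a named row, and all 7 (MITF, PMEL, MLANA, TYR, TYRP1, SOX10 and S100B) were brighter than the median gene, with array means of the list from 10.70 to 10.71 in control, 10.72 to 10.77 at 0.5 nM and at 10.68 on the 2 arrays at 0.25 nM that hold all 7. The 4 keratinocyte markers averaged 3.98 to 4.46 on the arrays that hold all 4 and the 2 measured fibroblast markers 3.70 to 4.73. The 2 measured endothelial markers averaged 6.71 to 6.99, with mean levels of 5.31 and 8.37. The brighter of them lay above the median gene (6.25) and above the dimmest melanocyte marker (8.17). Of 4 leukocyte markers only CD68, a lysosomal glycoprotein of macrophages that other cells also make, had a named row. CD68 was lower than control at both doses, by limma (-0.37, adjusted p = 0.000765, and -0.58, adjusted p = 5.59e-05). Its part in the results was not tested.

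POLR3G lay lower on every mimic array that was used than on any control array. In control its deposited value was 10.66 on all 3 arrays, an exact tie, which is 10.74 after the shift. At 0.5 nM the shifted values were 10.24, 10.19 and 10.10, and at 0.25 nM they were 10.12 and 9.999 on the 2 arrays used. The lowest control value thus stood well above the highest mimic value. Group means were 10.18 ± 0.069 (SD, n = 3) at 0.5 nM and 10.06 ± 0.085 (SD, n = 2) at 0.25 nM, differences from control of -0.57 and -0.69. On the linear scale these are 67.5% and 62.2% of the control signal. The array shift makes up 0.09 and 0.15 of the log2 differences at 0.5 nM and 0.25 nM. Because POLR3G was chosen on these contrasts, the differences are a description and no test is given. In bulk RNA, fewer cells that make a transcript and less of it per cell cannot be told apart.

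**Figure D1:**
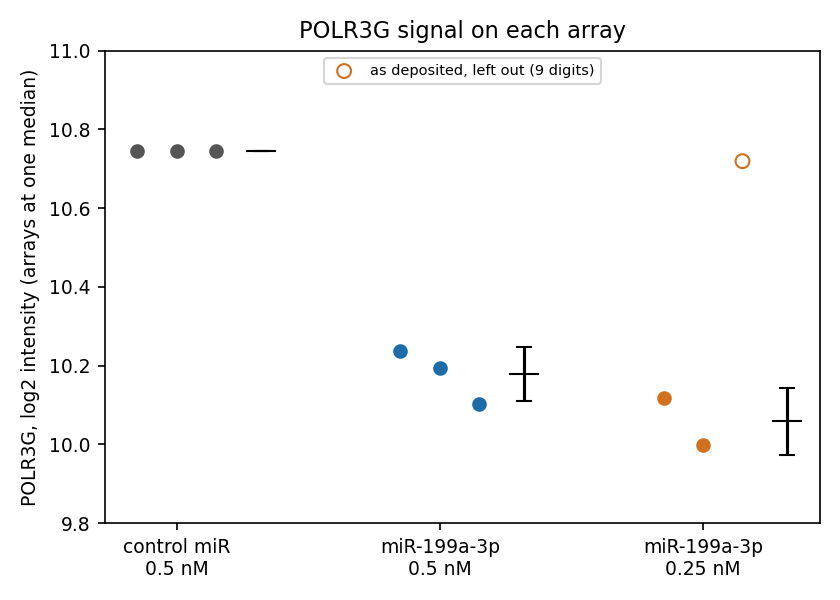
POLR3G log2 intensity (vertical axis, arrays shifted to one median) on each array of the 3 transfection groups; filled points are the values used, horizontal bars with whiskers the mean and SD. The control arrays tie at 10.74, the used mimic arrays lie between 9.999 and 10.24, and the open point is the deposited value left out at 0.25 nM.

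The third array at 0.25 nM needs a statement of its own. Its deposited value, 10.7996797, has 9 digits and would place POLR3G at control level. In that column 0 values have 0 as their first decimal, against 4178 to 4774 in each of the other columns. Among its 2675 short values that lie over 0.5 from the mean of the other 2 arrays of the group, 2642 (98.8%) come nearer to that mean when a zero is put back after the point. For POLR3G the deposited value lies 0.67 above that mean, and with a zero put back it lies -0.05 from it, at 10.08 before the shift. A value of 9 digits can also be a whole value that ends in zero: the deposited 0.5 nM replicate 1 value, 10.2385434, has 9 digits too, in a column without that pattern. Values of under 10 digits in the affected column were left out, which touches 2834 of 14812 genes (19.1%). With the deposited value kept, the difference at 0.25 nM was -0.47, and its 3 arrays then spread from 9.999 to 10.72.

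The size of the POLR3G difference can be read against all genes. At 0.5 nM it ranked 420 from the lowest of 14812 genes, and at 0.25 nM 264. Among the 7406 genes above the median level it ranked 81 and 35, respectively. The quartiles of those brighter genes were -0.14 and 0.11 at 0.5 nM and -0.17 and 0.10 at 0.25 nM. A difference at least as low as that of POLR3G at both doses was held by 81 genes, 0.547% of all, POLR3G included. Among genes above the median level there were 14, or 0.189%. Control arrays lying above all arrays of both doses is in itself frequent, at 22.5% of all genes (3334) and 22.6% of those above the median level. A mean below control at both doses was found in 34.7% of genes.

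**Figure D2:**
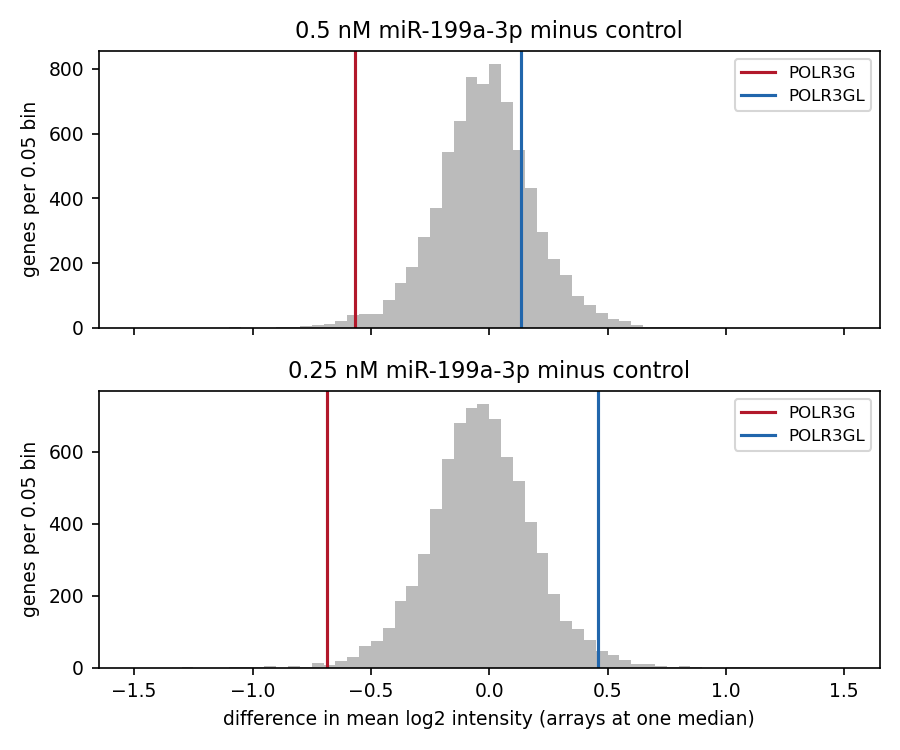
Number of genes above the median level (vertical axis, 7406 genes in bins of 0.05) by the difference in mean log2 intensity between each mimic dose and control (horizontal axis). POLR3G stands in the lower tail at both doses, at -0.57 and -0.69, and its paralog POLR3GL on the upper side, at 0.13 and 0.46.

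Between the doses, which received the same mimic, limma on arrays did not call POLR3G. The choice of POLR3G as lower at both doses bears on this contrast too. A test of both doses against control, with each group as 1 unit, had already picked it out. The spread in that test comes in part from the gap between doses, so closeness of the doses is no separate finding. The mean at 0.5 nM exceeded that at 0.25 nM by 0.12 ± 0.049 (SE; limma adjusted p = 0.0764), and the lowest 0.5 nM array (10.10) lay below the highest 0.25 nM array (10.12). The limma spread is pooled over all 3 groups, so it includes the tied control arrays, where the SD of POLR3G is 0. An exact two-sided permutation test over the 5 arrays gave p = 0.40, where 0.20 is the smallest p this design allows. In the same limma fit 62.2% of all genes passed for this contrast, 35.0% as higher and 27.2% as lower at 0.5 nM. The call turned on single arrays: without 0.5 nM replicate 3 the difference was 0.16 (limma adjusted p = 0.0245), and without 0.25 nM replicate 1, which leaves 1 array assumed to vary like the other groups, 0.18 (limma adjusted p = 0.0321). With the short value kept it turned to -0.09 (limma adjusted p = 0.633). By level the order of the groups was control, 0.5 nM, 0.25 nM, with the last pair not separated.

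POLR3GL, the paralog that takes the place of POLR3G, lay higher than control at both doses. Its control values were 7.07, 7.10 and 7.22. At 0.5 nM the values were 7.27, 7.26 and 7.26, and at 0.25 nM 7.60, 7.58 and 7.58, both from exact ties in the deposited table. No control array reached a mimic array. The share of all genes with this upward separation was not analysed here, while the reverse separation held in 22.5%. The differences were 0.13 ± 0.035 (SE; limma adjusted p = 0.0123) at 0.5 nM and 0.46 ± 0.035 (SE; limma adjusted p = 1.62e-05) at 0.25 nM, or 109.7% and 137.4% of the control signal. The dose difference of -0.32 passed as well (limma adjusted p = 0.000123). In this fit 33.2% of all genes passed as higher at 0.5 nM and 30.3% at 0.25 nM, so a call of this kind is frequent. With each group counted as 1 unit POLR3GL did not pass (limma adjusted p = 0.874). Its direction and its calls held in all 17 alternatives run, with differences of 0.10 to 0.22 at 0.5 nM and 0.43 to 0.61 at 0.25 nM. POLR3G over the same alternatives stayed between -0.60 and -0.48 and between -0.75 and -0.47.

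Of the other subunits particular to RNA polymerase III, 4 besides POLR3GL had a named row. None lay as far from control as POLR3G, an order that follows in part from choosing POLR3G for its low values. POLR3B, which forms the catalytic core with the largest subunit, stood at 0.020 and 0.09 for 0.5 nM and 0.25 nM (limma adjusted p = 0.916 and 0.635), and at -0.11 and -0.037 without control replicate 1. POLR3C, the direct partner of POLR3G in the initiation subcomplex, stood at 0.04 (limma adjusted p = 0.314) and rose by 0.14 at 0.25 nM (limma adjusted p = 0.00917). POLR3E, of the subcomplex that acts in initiation and termination, stood at 0.0059 and -0.13 (limma adjusted p = 0.958 and 0.238), the latter at 0.027 without the shift. CRCP, of the stalk that binds initiation factors, was higher at 0.5 nM by 0.34 (limma adjusted p = 0.0351) and stood at 0.026 at 0.25 nM (limma adjusted p = 0.860). Control arrays held CRCP at 8.45, 8.77 and 8.84, 0.5 nM arrays at 8.89, 9.12 and 9.06, and 0.25 nM arrays at 8.59, 8.77 and 8.77. Control and 0.25 nM overlapped, while each 0.5 nM array lay above control. The share of all genes with such a separation at 0.5 nM was not analysed here. The CRCP call was lost without control replicate 1, 0.5 nM replicate 2 or 3, or 0.25 nM replicate 2 or 3. The other subunits were not analysed here.

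In all, 9 other genes of subunits and initiation factors were measured: the 5 subunits above, the shared subunits POLR2F and POLR2H, the factor GTF3A and the TATA-binding protein TBP. At 0.5 nM 5 of the 9 passed the limma fit, 3 higher and 2 lower, where 63.3% of all genes passed. At 0.25 nM 4 passed, 2 higher and 2 lower, where 64.2% of all genes did. The shares are close to the background. The median difference of the 9 was 0.04 and 0.026, against 0.0097 and -0.020 over all genes. Without the shift between arrays the split was 5 higher and 1 lower at 0.5 nM and 4 and 1 at 0.25 nM, and over all genes it moved from 4917 higher and 4455 lower to 6665 and 2973 at 0.5 nM, and from 4486 and 5025 to 7517 and 2529 at 0.25 nM. Without control replicate 1 the count at 0.5 nM was 3, as CRCP and GTF3A no longer passed.

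POLR2F, a subunit common to all nuclear polymerases, was lower at both doses. It went from 6.97 on all 3 control arrays to 6.67 to 6.68 at 0.5 nM and 6.74 to 6.76 at 0.25 nM, with no overlap. All control arrays lay above all mimic arrays in 22.5% of all genes. The POLR2F differences were -0.30 (limma adjusted p = 5.22e-08) and -0.22 (limma adjusted p = 2.57e-07). Without the shift the latter was -0.07. The deposited POLR2F values tie exactly within each group. Its SDs after the shift (0.0063 at 0.5 nM and 0.0097 at 0.25 nM) thus come from the shift alone. These p-values do not measure its variation between replicates. POLR2H, also shared by the nuclear polymerases, was higher at 0.5 nM (0.13, limma adjusted p = 2.26e-05), and at 0.25 nM it was lower with the shift (-0.05, limma adjusted p = 0.00331) and lay at 0.10 without it. The latter call was also lost with quantile normalization (-0.018) and with the short values kept. With a zero put back in short values, both POLR2H calls were lost. Its deposited values on the arrays used tie exactly within each group, so its p-values have the same limit as those of POLR2F. GTF3A, the factor that starts transcription of the 5S ribosomal RNA genes, was lower at 0.5 nM by limma (-0.17, adjusted p = 0.0308) and stood at -0.11 at 0.25 nM (adjusted p = 0.127). The GTF3A call at 0.5 nM was lost without the shift (-0.08), with a zero put back in short values, without any single control replicate and without 0.5 nM replicate 1. At 0.25 nM GTF3A lay at 0.045 without the shift. TBP stood at 0.11 and 0.17 (limma adjusted p = 0.185 and 0.0835).

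**Figure D3:**
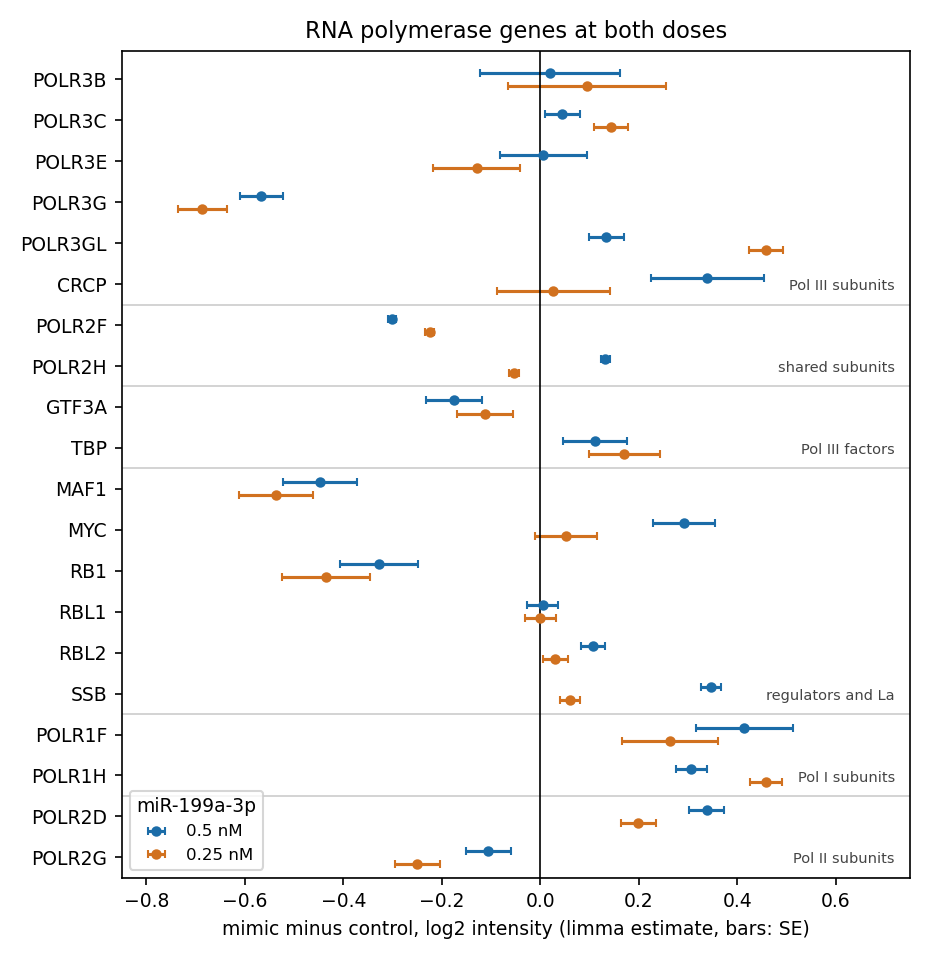
Difference between mimic and control in log2 intensity (horizontal axis, limma estimate with SE) for named genes of RNA polymerases and regulators of polymerase III (vertical axis), at 0.5 nM and 0.25 nM. POLR3G, chosen for its low values, is the lowest gene shown (-0.57 and -0.69), and POLR3GL lies at 0.13 and 0.46. POLR2H at 0.25 nM changes sign without the shift between arrays.

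When each group is counted as 1 unit, control against both doses, limma called 19 of 14812 genes (0.128%), 15 of them lower (0.101%). POLR3G is among these 15, and since it was picked with that result in view nothing is read from it. None of the 9 other polymerase III genes passed this test (0 adjusted and 0 at an unadjusted p under 0.05; 972 of all genes at an unadjusted p under 0.05). The test called 0 genes in the series as a whole without the shift between arrays, with quantile normalization, without the intensity trend or without 0.25 nM replicate 1.

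The regulators of polymerase III included genes that were lower at both doses beside POLR3G. MAF1, the general repressor of polymerase III, held 8.33 on all 3 control arrays, 7.89, 7.88 and 7.88 at 0.5 nM, and 7.99, 7.70 and 7.70 at 0.25 nM. Its arrays did not overlap with control, and its differences were -0.45 ± 0.076 (SE; limma adjusted p = 0.00142) and -0.54 ± 0.076 (SE; limma adjusted p = 0.000522). RB1, the retinoblastoma protein, which also represses polymerase III, was lower at -0.33 and -0.43 (limma adjusted p = 0.0115 and 0.00556). With groups as units neither passed (limma adjusted p = 0.362 for each). They were the 2 of 6 regulators at an unadjusted limma p under 0.05, where 972 of all 14812 genes were. All control arrays lay above all mimic arrays, as they did for MAF1 and RB1, in 22.5% of all genes. In the fit on arrays 30.1% of all genes passed as lower at 0.5 nM and 33.9% at 0.25 nM. Their calls held in all 17 alternatives. MYC, an activator of polymerase III, was higher at 0.5 nM (0.29, limma adjusted p = 0.00501) and stood at 0.05 at 0.25 nM (limma adjusted p = 0.499, or 0.0221 with the replicate number as a block). SSB, the La protein that binds the ends of new polymerase III transcripts, was higher at 0.5 nM (0.35, limma adjusted p = 3.54e-06) and at 0.25 nM (0.06, limma adjusted p = 0.0361), a call lost with the block (0.0549), with the short values kept and without any 1 of the 0.5 nM arrays or 0.25 nM replicate 1 or 2. RBL2, a relative of RB1, was higher at 0.5 nM (0.11, limma adjusted p = 0.00713) and stood at 0.031 at 0.25 nM (limma adjusted p = 0.319), and RBL1, another relative, stood at 0.0048 and -0.0001 (limma adjusted p = 0.908 and 0.998). Of the 6 measured regulators, 3 were thus higher and 2 lower at 0.5 nM, and 1 higher and 2 lower at 0.25 nM. At 0.25 nM the split was 4 and 2 without the shift.

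The products of polymerase III were measured only in part, by 6 of 19 listed RNAs. RMRP, the RNA of the mitochondrial RNA processing ribonuclease, was lower by -0.06 and -0.07 (limma adjusted p = 0.0408 and 0.0322), values that turned to 0.026 and 0.09 without the shift and to 0.017 and 0.05 with quantile normalization. The RMRP calls were also lost with the block (limma adjusted p = 0.0732 and 0.0611). That at 0.5 nM was lost without any 1 of the mimic arrays, and that at 0.25 nM without 0.5 nM replicate 2 or 0.25 nM replicate 1 or 3. Of the RNAs with a VTRNA symbol, VTRNA1-1 was lower at 0.5 nM (-0.69, limma adjusted p = 0.00625) and stood at -0.29 at 0.25 nM (limma adjusted p = 0.144). VTRNA1-2 was higher at 0.5 nM (0.20, limma adjusted p = 0.0213) and lower at 0.25 nM (-0.80, limma adjusted p = 1.50e-05). On each 0.5 nM array VTRNA1-1 and VTRNA1-2 held the same deposited value, 4.11. Their opposite calls at that dose set a shared mean of 4.10 against control means of 4.80 and 3.90, respectively. VTRNA2-1 was higher at 0.5 nM (0.63, limma adjusted p = 0.000240) and stood at -0.05 at 0.25 nM, and VTRNA1-3 was lower at 0.25 nM (-0.50, limma adjusted p = 0.0131). The call of VTRNA1-2 at 0.5 nM was lost with quantile normalization, without control replicate 1 or 2 and without any 1 of the 0.5 nM arrays; that of VTRNA1-3 was lost without the shift. RPPH1, the RNA of ribonuclease P, stood at -0.37 and 0.17 (limma adjusted p = 0.368 and 0.683), and with the replicate number as a block it passed at both doses, lower at 0.5 nM (limma adjusted p = 0.000460) and higher at 0.25 nM (limma adjusted p = 0.00966). In counts 2 of the 6 were higher and 2 lower at 0.5 nM, and 0 higher and 3 lower at 0.25 nM, with medians of -0.16 and -0.18. In the same fit 63.3% and 64.2% of all genes passed. At 0.25 nM the split was 1 and 1 without the shift and 1 and 2 with the block. None passed with groups as units (0, and 0 at an unadjusted p under 0.05, by limma). VTRNA1-1, VTRNA1-2 and VTRNA2-1 were dimmer than the median gene.

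Downstream of the polymerase, 11 of 19 listed genes of transfer RNA processing and export were measured. At 0.5 nM 2 were higher (RPP38 and RPP30, subunits of ribonuclease P) and 1 lower (RPP14, of the same enzyme), and with the block 3 were higher and 3 lower. At 0.25 nM 2 were higher (RPP38 and TSEN34) and 1 lower (TSEN54), and with the block 3 and 1; the TSEN proteins belong to the transfer RNA splicing endonuclease. RPP38 stood at 0.35 and 0.42 (limma adjusted p = 2.83e-07 and 1.11e-07), RPP14 at -0.35 and -0.07 (limma adjusted p = 0.00516 and 0.457). TSEN54 at -0.22 (limma adjusted p = 0.0330) lost its call with the block (0.0511), without the shift, where it stood at -0.07, and without any single replicate of the mimic groups or without control replicate 2 or 3. RPP40 had the lowest mean over both doses, at -0.31 and -0.27, and did not pass (limma adjusted p = 0.207 and 0.306). Its value at 0.25 nM rested on single arrays, at 0.12 without 0.25 nM replicate 1 and -0.66 without 0.25 nM replicate 2. The share that passed, 3 of 11 at each dose, was under the background of 63.3% and 64.2%; without the shift 5 passed at 0.5 nM and 4 at 0.25 nM.

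Subunits of the other polymerases were set beside these. Of polymerase I, POLR1F and POLR1H were measured and both were higher at both doses: POLR1F by 0.41 and 0.26 (limma adjusted p = 0.00766 and 0.0488) and POLR1H by 0.31 and 0.46 (limma adjusted p = 9.35e-05 and 9.11e-06). Of all genes 33.2% and 30.3% passed as higher at these doses. The call of POLR1F at 0.25 nM was lost without control replicate 1 or 2, without any 1 of the 0.5 nM arrays, and without 0.25 nM replicate 2 or 3. Of polymerase II, POLR2D was higher at both doses (0.34 and 0.20, limma adjusted p = 9.90e-05 and 0.00184). POLR2G stood at -0.11 at 0.5 nM (limma adjusted p = 0.0799) and was lower at 0.25 nM (-0.25, limma adjusted p = 0.00210), a call lost without the shift, at -0.09. Of these 4 genes none passed with groups as units (0 adjusted by limma). POLR1F alone of them was at an unadjusted limma p under 0.05, where 972 of all 14812 genes were.

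Pluripotency genes were read because POLR3G is known from stem cells, but 7 of the 8 lay below the median level. At 0.5 nM NANOG, LIN28A, LIN28B and SALL4 were higher, and KLF4 and DPPA4 lower; at 0.25 nM POU5F1, NANOG, LIN28A, LIN28B and SALL4 were higher and 0 lower. NANOG stood at 0.41 and 0.32 (limma adjusted p = 0.00123 and 0.00470) at a mean level of 2.71. KLF4 stood at -0.65 (limma adjusted p = 4.44e-05) and -0.020. The shares, 6 of 8 and 5 of 8, stand against 63.3% and 64.2% of all genes. With quantile normalization LIN28B at 0.5 nM turned to -0.07, and the split at that dose was 2 higher and 3 lower, while without the shift it was 6 and 1. The calls of LIN28A and DPPA4 at 0.5 nM were lost without any 1 of the control arrays. None passed with groups as units (0, and 0 at an unadjusted p under 0.05, by limma).

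POLR3G was chosen for its low values, and genes next to it in the RefSeq table lay closer to control. MBLAC2, a metallo-beta-lactamase domain protein whose gene overlaps that of POLR3G there, was higher at 0.5 nM by 0.04 (limma adjusted p = 0.0389, or 0.0796 with the block) and lower at 0.25 nM by -0.20 (limma adjusted p = 2.81e-05). Its arrays ran from 7.66 to 7.70 in control, 7.72 to 7.73 at 0.5 nM and 7.47 to 7.49 at 0.25 nM. The call at 0.5 nM was also lost without control replicate 1 or 2 and without any 1 of the 0.5 nM arrays. ADGRV1, an adhesion receptor on the far side, had low signal (mean level 4.55) and stood at 0.033 and -0.0030. LYSMD3 and LOC731157, the other neighbours, were not analysed here. Whether any probe lies where MBLAC2 and POLR3G overlap was not analysed either.

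The genes whose profile over the 8 arrays was closest to that of POLR3G were MCCC2, RNF141, TMED1, PHF14 and CA8. Closeness is the root mean square distance between profiles in log2 units, each profile centred on its own mean, among 7405 other genes above the median level. It was 0.046 for MCCC2, a subunit of methylcrotonoyl-CoA carboxylase in leucine breakdown, 0.057 for RNF141, a RING finger protein, 0.060 for TMED1, a cargo receptor of the early secretory pathway, 0.064 for PHF14, a PHD finger protein, and 0.065 for CA8, a carbonic anhydrase relative without the enzyme activity. The next gene stood at 0.068, so the list has no clear edge, and the median candidate stood at 0.31. MCCC2 went from 9.17, 9.19 and 9.18 in control to 8.67, 8.66 and 8.65 at 0.5 nM and to 8.51, 8.49 and 8.49 at 0.25 nM. These genes were selected for the same pattern, so their differences of -0.58 to -0.47 at 0.5 nM and -0.69 to -0.56 at 0.25 nM carry no test. All profiles share the same 3 groups of arrays.

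**Figure D4:**
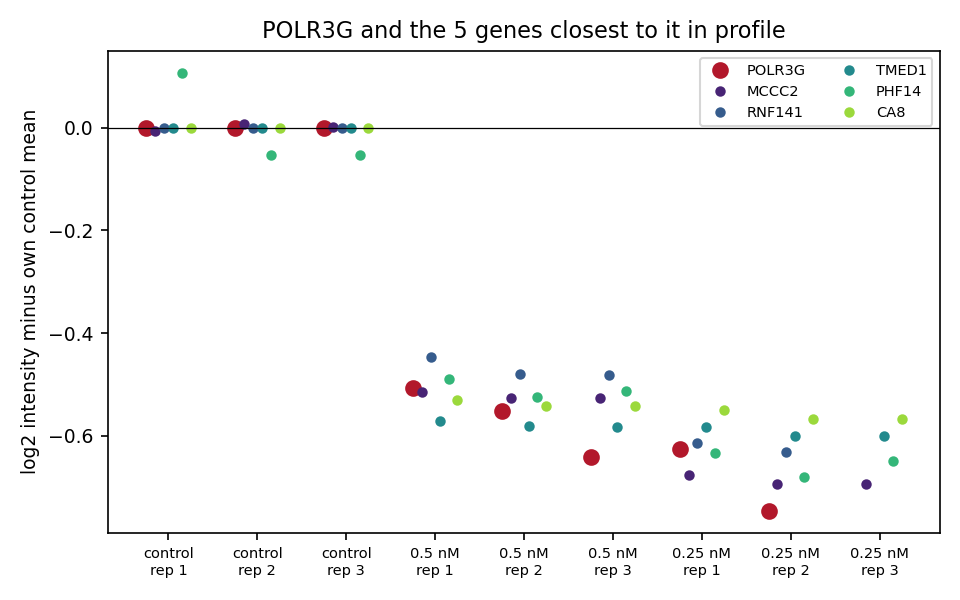
Log2 intensity minus the gene's own control mean (vertical axis) on each of the 9 arrays for POLR3G and the 5 genes closest to it in profile. All 6 genes drop between control and the mimic groups; POLR3G has no used value on 0.25 nM replicate 3 and ranges from -0.51 to -0.75 over its mimic arrays.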

How the data were processed

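The authors deposited log2 intensities, 1 table for all 9 arrays. RMA, oligo and affy are the tools listed in the submitters' processing notes; which versions, in which order and on which genome build was not given in the sources used here. Labelling was by biotin with a kit for whole transcripts, per the labels' protocols. Rows were named through the platform annotation (all 15835 gene IDs matched RefSeq, GRCh38.p14), the brightest row per gene was kept, values of under 10 digits in 0.25 nM replicate 3 were left out, and arrays were shifted to one median over genes with no missing value.

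Each contrast was tested with limma 3.58.1 (R 4.3.3) over all 9 arrays, fitting 1 mean for each group, two-sided, Benjamini-Hochberg over 14812 genes, threshold 0.05. The group-level test fitted limma with an intensity trend to the 3 group means. Both were also run on simulated data without exact ties. That run therefore cannot show how the tests behave on the tied values here. Precision is limited by 3 arrays per group. Deviations from group means of same-numbered arrays correlated at 0.143 to 0.585 in all 9 pairs of arrays. This is from the data and not from a label. Of the 9 arrays, 6 correlated best with an array of their own number in another group. Replicate numbers may thus pair the arrays only in part. The main fit has no block, and the blocked fit is given where it changes a call.

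POLR3G, the gene lists and the tests were chosen with earlier results of these data known. Of 130 list entries 61 had a named row. The rule named 40 genes: POLR3G, the polymerase III subunits, 2 neighbours on each side, the 5 closest profiles, the highest and lowest member of each list and the lineage markers. A further 18 were named after their values were seen (RB1, MYC, RBL2, VTRNA1-2, VTRNA1-3, RMRP, POLR1F, RPP30, RPP14, TSEN34, TSEN54, POU5F1, LIN28A, LIN28B, SALL4, DPPA4, RPPH1 and RBL1). Alternatives changed the shift, normalization, short values, dim genes, rows per gene, block, trend and single replicates.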

Additional observations from a re-analysis of the deposited data

Results flagged for a closer look

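Leaving out POLR3G and the 5 genes chosen for a like profile, 33 of 52 named genes differed between the 2 doses of the mimic in the limma fit on arrays, 20 higher and 13 lower at 0.5 nM, where 62.2% of all genes did so. Each value is the log2 difference of 0.5 nM minus 0.25 nM. The higher ones were VTRNA1-2 (1.00), VTRNA2-1 (0.68), CRCP (0.31), SSB (0.29), PMEL (0.26), TYRP1 (0.24), MBLAC2 (0.24), MYC (0.24), CD68 (0.21), SOX10 (0.21), POLR2H (0.19), KRT5 (0.18), S100B (0.16), RPP30 (0.15), POLR2G (0.14), POLR2D (0.14), RBL2 (0.076), DCN (0.074), SALL4 (0.044) and ADGRV1 (0.036). The lower ones were KLF4 (-0.63), VWF (-0.45), MLANA (-0.34), POLR3GL (-0.32), RPP14 (-0.28), LIN28B (-0.27), KRT14 (-0.23), POLR1H (-0.15), TSEN34 (-0.11), POLR3C (-0.10), POLR2F (-0.076), RPP38 (-0.067) and MITF (-0.051). Of the 33 calls, 16 held in every alternative run for them and 17 were lost in at least 1. Among the 16, KRT5, KRT14, VWF, POLR2F and POLR2H tie exactly within each group on the arrays used. Their spread is only what the array shift adds, so a kept call does not measure agreement between replicates. CRCP and PMEL kept theirs in 7 of 17, RBL2 in 8, POLR3C and RPP30 in 9, POLR2G in 10 and TSEN34 in 11.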

How the results depend on the processing

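Chosen as lower at both doses, POLR3G kept its direction against control in all 17 alternatives, a description that re-uses the same values. Without the shift between arrays it stood at -0.48 and -0.53, and with short values kept at -0.47 for 0.25 nM and -0.093 between doses. Leaving out 1 array gave -0.60 to -0.53, -0.75 to -0.63 and 0.060 to 0.18 for 0.5 nM, 0.25 nM and the dose difference. The counts of genes past the test then ran from 8632 to 9773, 8728 to 9600 and 8653 to 9470. The other polymerase III genes past it numbered 3 to 5 and 4 to 5, and 3 at 0.5 nM with a zero put back in short values, an alternative chosen after seeing the data. Testing only genes above the median level gave 3787, 3944 and 3645 genes, from a smaller number tested. The 19 genes called with groups as units became 0 without the shift, 0 with quantile normalization, 0 without the trend, 0 with the zero put back, 35 with short values kept, 39 with all rows averaged, and 0 to 47 without 1 array; the cause was not tested. With the replicate number as a block the counts were 9740, 9878 and 9589, against 9372, 9511 and 9210. Beside the calls given with it above, the block ended that of POLR2G and gave one to RPPH1 between doses, and gave one to RPP30 at 0.25 nM (limma adjusted p = 0.000292); it changed no other call of a named gene.

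Signs reversed as follows where the value passed the test before or after the change, with the cause not tested. Without the shift these were VWF (0.0048) and RMRP (0.026) at 0.5 nM; RMRP (0.089), ADGRV1 (0.15), POLR2H (0.10), RBL1 (0.16), KRT14 (0.045) and S100B (0.025) at 0.25 nM; and RMRP (-0.063), ADGRV1 (-0.031), TMED1 (-0.051), CA8 (-0.044) and SALL4 (-0.023) between doses. With quantile normalization they were ADGRV1 (-0.048), RMRP (0.017) and LIN28B (-0.075) at 0.5 nM, RMRP (0.054) at 0.25 nM, and ADGRV1 (-0.032) and SALL4 (-0.036) between doses. Leaving out 1 array, KLF4 at 0.25 nM ran from -0.059 to 0.057 (without control replicate 1), and RPP40 between doses from -0.42 to 0.35 (without 0.25 nM replicate 2). With the zero put back, ADGRV1 (-0.0064) and CA8 (-0.019) turned between doses. Of 2862 values of single genes under alternatives, 2510 kept direction and side of the threshold, 209 lost the call, 58 gained one, 23 reversed as listed, and 62 changed sign without passing the test on either side, among them POLR3B, POLR3E, GTF3A, PMEL and RPP14. Signal over background was not analysed here.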
